A study of Homo sapiens with 60 samples.

Results

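HT29 cells were exposed to the 2 lower doses of a licorice root water extract (Glycyrrhizae Radix), 100 and 20 µg/mL, and compared with cells that received vehicle. The members were taken by their titles as the medium and low dose libraries of that extract and the vehicle libraries: 6 licorice libraries, 3 at each dose, and 3 vehicle libraries, 9 of the 60 libraries used here. HT29 is an established line from a human colorectal adenocarcinoma. The study applied 6 herbal water extracts at 500, 100 and 20 µg/mL, and the phosphoinositide 3-kinase inhibitors wortmannin and LY294002, for 24 h and sequenced the RNA. All groups are cells of that 1 line. The sample labels give the vehicle as 0.1% DMSO and the series text as 2% DMSO, and the series text adds that extracts more toxic than a set limit were given at lower doses. The doses here are those on the licorice sample labels.

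The first digits of the sample codes put vehicle and the inhibitors in set 1, Poria and Atractylodis in set 2, licorice and ginseng in set 3 and Angelicae and Paeoniae in set 4. What these sets stand for is not stated, so licorice against vehicle also compares 2 sets, and the extract and the set cannot be told apart there. Licorice against ginseng lies within set 3. The labels do not say that replicates were separate cultures, so p-values measure a spread between libraries that may be technical. In the edgeR fits that spread was estimated over all 21 groups of the 60 libraries, not over the 9 libraries alone. Library totals, in units of 1e6 counts, were 20.4 to 29.4 for licorice and 23.3 to 24.8 for vehicle. All 14 colon epithelium markers were measured, with a summed level of 13300 to 13500 CPM, the counts scaled to a common library total, in licorice and 12800 to 13400 in vehicle. Of 10 leukocyte markers 4 passed the filter on low counts, with a summed level, nearly all LYZ, of 1370 to 1610 CPM in licorice and 1380 to 1440 in vehicle, and PTPRC, CD3E and MS4A1 were among those that did not pass. Of 8 hepatocyte markers 4 passed, with a summed level of 396 to 467 CPM in licorice and 461 to 513 in vehicle, and ALB was not among them. The part of these markers in the results was not tested. Of 10 fibroblast markers 2 passed it, with a summed level of 1.96 to 2.42 CPM in licorice and 2.1 to 2.35 CPM in vehicle. In RNA from a whole culture, fewer cells of a type and less RNA per cell cannot be told apart.

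Colon epithelial cells take part in mucosal defence. When the transcription factor NF-kB is active they transcribe chemokines that draw neutrophils and lymphocytes, antimicrobial and antiprotease proteins, complement components and the receptor that carries IgA into the gut lumen. Feedback inhibitors such as NFKBIA and TNFAIP3 are transcribed by the same factor and restrain it. Licorice root is known for triterpenoid saponins, among them glycyrrhizin, whose metabolite inhibits the cortisol-inactivating enzyme HSD11B2.

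Chemokine and defence genes were among the largest rises and are described after their promoter sites. The 6 chemokine genes shown here were higher with licorice and share the run GGAATTTCC, a form of the NF-kB site, within 250 bases before the RefSeq start. The sites are printed because these genes are described first, on the strand of the gene and with that run in capitals (RefSeq, GRCh38.p14). The positions are chr4:73869305-73869334 (plus) for CXCL1, chr4:74099253-74099282 (minus) for CXCL2, chr4:74038748-74038777 (minus) for CXCL3, chr4:73998748-73998777 (minus) for CXCL5, chr4:73836579-73836608 (plus) for CXCL6 and chr4:73740468-73740497 (plus) for CXCL8.
CXCL1: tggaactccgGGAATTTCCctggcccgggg
CXCL2: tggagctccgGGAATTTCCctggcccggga
CXCL3: tggagctccgGGAATTTCCctggcccggcc
CXCL5: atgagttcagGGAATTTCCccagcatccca
CXCL6: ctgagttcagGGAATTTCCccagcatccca
CXCL8: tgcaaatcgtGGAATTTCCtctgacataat
The run begins 78 bases before the start in CXCL1 and CXCL3, 77 in CXCL2, 90 in CXCL5, 89 in CXCL6 and 91 in CXCL8. It was searched on both strands after the values had been seen. The genes searched were those that rose, and CXCL1, CXCL2, CXCL3, CXCL5, CXCL6 and CXCL8 are related neighbours on chromosome 4, so the shares describe chosen, related genes. The run occurred in 6 of the 11 genes of the NF-kB list that rose and had a promoter window, and in 137 of all 27305 genes with one (0.502%). The general NF-kB consensus, which the GGAATTTCC run can overlap, occurred in 9 of the 11 and in 3221 of all genes (11.8%). C3, PI3 and SAA1 had no window in the table used. Matches to the consensus (capitals) in 3 more genes that were higher lie at chr2:227813753-227813782 (plus) for CCL20, chr16:3065295-3065324 (plus) for IL32 and chr9:128149268-128149297 (plus) for LCN2, and are shown for comparison with the chemokine run.
CCL20: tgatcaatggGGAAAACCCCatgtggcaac
IL32: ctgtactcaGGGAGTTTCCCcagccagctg
LCN2: cagcactccgGGAATGTCCCtcactctccc
A match is a description of the sequence and does not show that the factor was bound.

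Against vehicle, the pooled lower doses differed in 507 of 16767 genes tested (3.02%) by edgeR's quasi-likelihood test at a Benjamini-Hochberg adjusted p under 0.05. Of these, 247 were higher (1.47%) and 260 lower (1.55%). Most differences were small: 461 of the 507 lay within 0.5 on the log2 scale of no change, and 26 reached 2-fold, 20 of them higher. With upper-quartile scaling the split was 201 higher and 320 lower of 521. The number called depended on single libraries. With vehicle replicate 1, 2 or 3 left out it was 839, 93 or 22. With licorice 100 replicate 2 or 3 left out it was 178 or 161, and with licorice 20 replicate 2 or 3 left out 248 or 118. Vehicle replicate 3 was the highest or lowest of the 9 libraries for 380 of the 507 genes, replicate 2 for 84 and replicate 1 for 50. This was counted over the called genes only, and a call favours genes whose vehicle libraries lie at an edge. A set of 19 genes was called whichever of the 9 libraries was left out. The 14 higher ones were PI3, C3, PIGR, DDX11, CXCL1, CXCL6, IL32, CXCL5, CFB, CXCL8, CEACAM7, SAA1, SLFN5 and LCN2, and the 5 lower ones were REG4, CREB3L1, NFAT5, UST and COLCA1. Of the higher ones, C3, CXCL5, SAA1, CXCL6 and IL32 had fewer than 10 counts in every vehicle library. They entered the test through groups where they were higher, so their place in this set is no separate support.

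**Figure D1:**
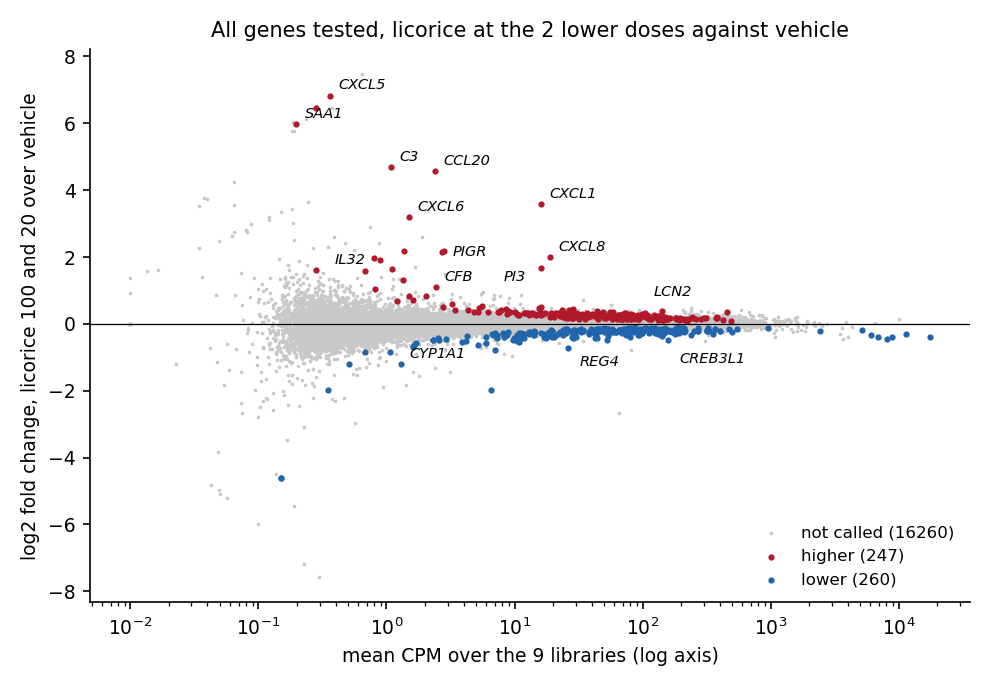
Every gene tested, with the mean CPM over the 9 libraries (log axis) against the fitted log2 fold change of licorice at 100 and 20 µg/mL over vehicle. Red points are the 247 genes called higher and blue points the 260 called lower, and chemokine and defence genes are among the highest. The fitted values of CXCL5 and SAA1, which had no count in vehicle, depend on the prior count and are not sizes to be read off.

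Of the 26 tested members of the NF-kB target and chemokine list, 14 rose and none fell, against 1.47% of all genes called higher. The list's median log2 difference was 0.80 against -0.00162 over all genes. Of the 14, 10 were also called in the fit without vehicle replicate 3, where the median was 0.72. CXCL2, CXCL3, CCL20 and TNFAIP2 were not called there. The other members of the list, CCL2, IL1A, IL1B, IL6, TNF, SAA2 and LTB, were too low to test. CXCL5, SAA1, C3, CCL20, CXCL6 and IL32 had fewer than 10 counts in every vehicle library and entered the test through groups where they were higher, so the count and the median describe the list and are no support for it.

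Among the neutrophil-attracting chemokines, CXCL1 (chromosome 4, 73869393 to 73871242, GRCh38) had 1.58, 1.93 and 2.25 CPM in vehicle, 26.3, 16.3 and 17.4 at 20 µg/mL and 27.2, 26.2 and 25.6 at 100 µg/mL. All licorice libraries were above all vehicle libraries, which 6.10% of genes tested showed in that direction. The log2 difference was 3.58 ± 0.595 (SE, adjusted p = 0.000672, edgeR). CXCL8, which encodes interleukin-8, had 6.57, 6.33 and 5.88 CPM in vehicle, 24.2, 23.3 and 23.1 at 20 µg/mL and 24.3, 26.8 and 29.6 at 100 µg/mL. Its licorice libraries lay 4.01-fold above vehicle with no overlap, at a log2 difference of 2.00 ± 0.355 (adjusted p = 0.00109, edgeR). CXCL6 had 0.128, 0.288 and 0.265 CPM in vehicle and 1.68 to 2.84 CPM (median 2.11) in licorice, again without overlap (log2 3.19 ± 0.543, adjusted p = 0.00081, edgeR).

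CXCL5 had no count in the 3 vehicle libraries and 10 to 20 counts in each licorice library. Set against a floor of 3 counts over the vehicle group it was at least 12.8-fold higher. The log2 differences of CXCL3 and CXCL2 were 2.19 ± 0.458 (adjusted p = 0.0068, edgeR) and 2.18 ± 0.495 (adjusted p = 0.0168, edgeR). Once vehicle replicate 3 was left out these p were 0.0745 and 0.0989, with differences of 2.33 ± 0.556 and 2.43 ± 0.609. CXCL1, CXCL2 and CXCL3 have near-identical stretches, so reads may have been divided among them by the estimation, and their separate values are uncertain.

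CCL20, which attracts CCR6-bearing lymphocytes and dendritic cells, had 0.171, 0.123 and 0.133 CPM in vehicle, 4.37, 2.03 and 2.41 at 20 µg/mL and 4.14, 4.03 and 4.26 at 100 µg/mL. Every licorice library was above vehicle (log2 4.57 ± 0.952, adjusted p = 0.0068, edgeR). Without vehicle replicate 3 the difference was 4.52 ± 1.14 and was not called (adjusted p = 0.0989, edgeR). IL32, a pro-inflammatory cytokine gene, had 0.299, 0.329 and 0.309 CPM in vehicle and 0.807 to 1.59 CPM (median 1.18) in licorice (log2 1.91 ± 0.328, adjusted p = 0.00081, edgeR). The epithelial chemokine genes CXCL16 and CCL28 did not pass the test, each with a log2 difference of -0.10 (adjusted p = 0.68 and 0.742, edgeR).

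Among secreted defence proteins, PI3, which encodes the elastase inhibitor elafin, had 6.40, 6.29 and 6.59 CPM in vehicle, 18.8, 17.1 and 16.6 at 20 µg/mL and 24.8, 22.2 and 25.0 at 100 µg/mL. Licorice was 3.18-fold higher with no overlap (log2 1.67 ± 0.173, adjusted p = 2.23e-08, edgeR), the lowest p of the genes named. PIGR, the receptor that transports polymeric IgA across the epithelium, had 0.683, 0.904 and 0.84 CPM in vehicle and 2.96 to 4.31 CPM (median 3.63) in licorice. This was a 4.46-fold difference (log2 2.16 ± 0.26, adjusted p = 6.2e-07, edgeR), and both genes were called in every left-out fit.

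Complement component C3 had 2, 2 and 0 counts in the vehicle libraries (0.0854, 0.0822 and 0 CPM) and 1.36 to 1.72 CPM (median 1.6) in licorice. The fitted log2 difference was 4.69 with a 95% interval from 3.58 to 5.80 (adjusted p = 6.2e-07, edgeR), and the 4 vehicle counts limit how well it is known. CFB, complement factor B of the alternative pathway, had 1.37, 1.52 and 1.28 CPM in vehicle and 2.43 to 3.3 CPM (median 3.01) in licorice (log2 1.09 ± 0.192, adjusted p = 0.00109, edgeR). LCN2, the iron-siderophore binding protein lipocalin-2, was already high in vehicle at 107, 121 and 123 CPM and reached 142 to 164 CPM (median 156) in licorice. Its log2 difference was 0.40 ± 0.0814 (adjusted p = 0.00604, edgeR).

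SAA1, an acute-phase apolipoprotein gene, had no count in vehicle and 5 to 12 counts in each licorice library, at least 6.83-fold higher against the same floor. Reads may be shared with SAA2. CEACAM7, an adhesion protein of mature colonocytes, had 0.341, 0.493 and 0.531 CPM in vehicle and 1.04 to 1.76 CPM (median 1.42) in licorice (log2 1.63 ± 0.295, adjusted p = 0.00151, edgeR). It was the only called member of the 19 enterocyte genes tested. Of all genes 3.02% were called, so that count is not read as a result about the list.

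**Figure D2:**
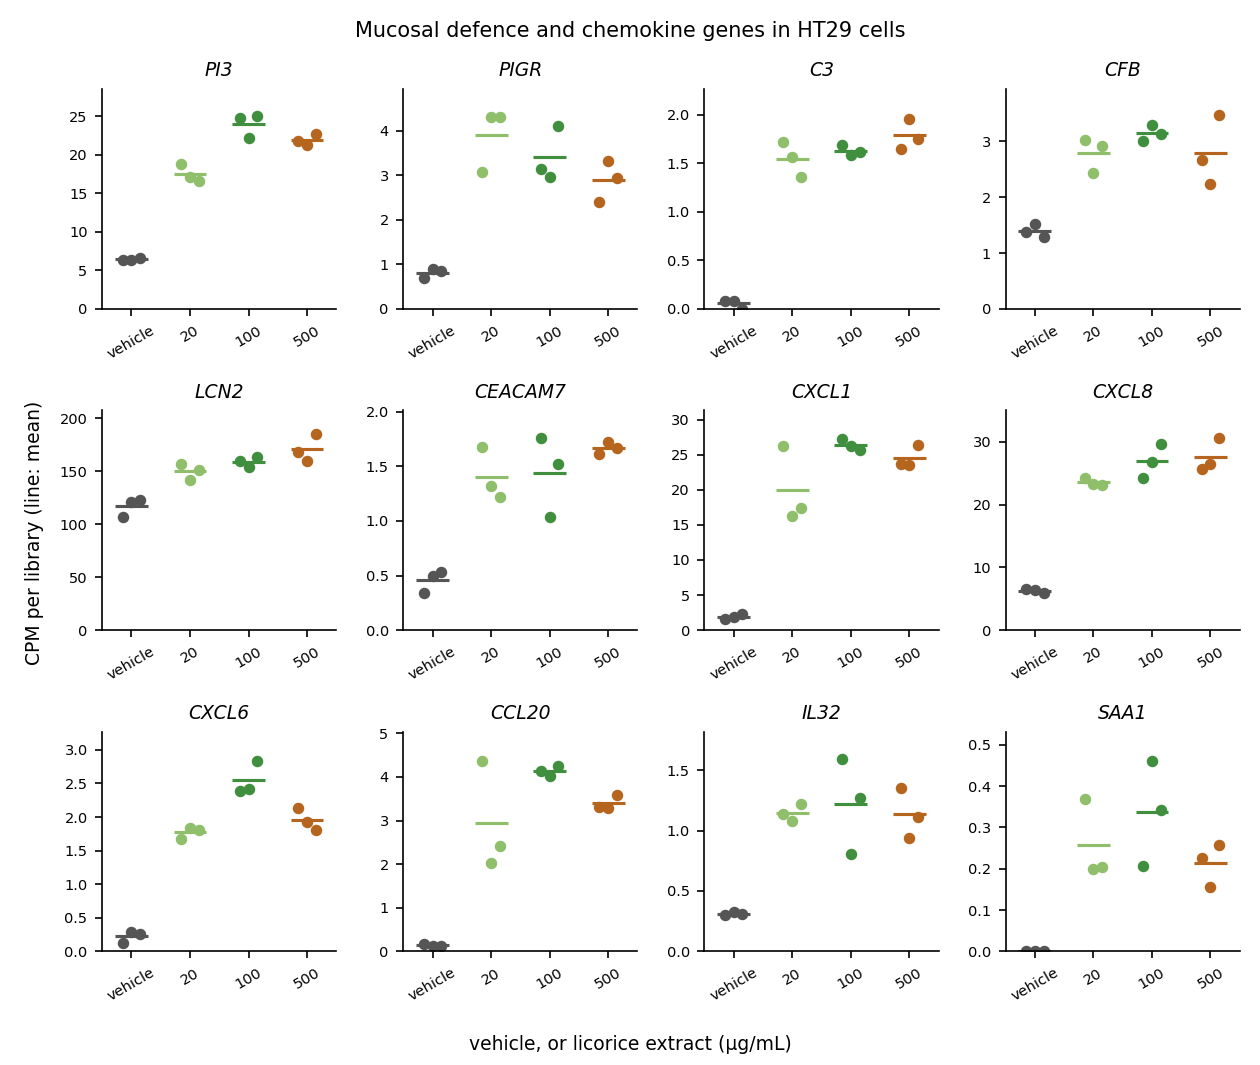
CPM of 12 defence and chemokine genes in each library (points, with the group mean as a line) for vehicle and for licorice at 20, 100 and 500 µg/mL. In each of the 12 panels all 6 points at 20 and 100 µg/mL lie above the 3 vehicle points, and the points at 500 µg/mL fall in a like range.

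The tested NF-kB subunit genes of the list and its feedback genes NFKBIA and TNFAIP3 did not pass the test. TNIP1, an A20-binding inhibitor outside the list, had 97.5, 96.1 and 99.0 CPM in vehicle and 107 to 121 CPM (median 111) in licorice, without overlap. Its log2 difference was 0.20 ± 0.0452 (adjusted p = 0.0153, edgeR), and 0.21 ± 0.0528 without vehicle replicate 3 (adjusted p = 0.0989, edgeR). ICAM1, an adhesion receptor, had 4.27, 5.1 and 4.16 CPM in vehicle and 7.06 to 9.32 CPM (median 8.28) in licorice without overlap, with a log2 difference of 0.86 ± 0.301 and an adjusted p of 0.091 (edgeR). NFKBIA, the inhibitor IkB-alpha, had 28.3, 27.3 and 27.1 CPM in vehicle and 27.4 to 33.8 CPM (median 30.9) in licorice. The groups overlapped, and the 95% interval of the log2 difference ran from -0.05 to 0.35 (adjusted p = 0.403, edgeR). TNFAIP3, the ubiquitin-editing protein A20, differed by 0.46 (adjusted p = 0.138, edgeR). Of the abundant genes, TNFAIP2 of this list differed by 0.33 ± 0.089 (adjusted p = 0.0354, edgeR) and SOD2, the mitochondrial superoxide dismutase of the FOXO list, by 0.30 ± 0.0773 (adjusted p = 0.0281, edgeR). Without vehicle replicate 3 the p of TNFAIP2 was 0.245 and that of SOD2 0.327, with differences of 0.34 ± 0.104 and 0.24 ± 0.088.

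Among the 33 interferon-stimulated genes tested, 4 rose, among them IFIT1, ISG15 and DDX60, against 1.47% of all genes called higher. None of the list fell, and the median log2 difference was 0.22 against -0.00162 over all genes. None of the 33 was called without vehicle replicate 3, where the list's median was 0.215. IFIT1, which binds viral RNA, had 4.31, 5.14 and 3.36 CPM in vehicle and 5.07 to 6.99 CPM (median 6.22) in licorice, so the lowest licorice library lay below the highest vehicle library. Its log2 difference was 0.53 ± 0.103 (adjusted p = 0.00389, edgeR), and 0.203 was the p without vehicle replicate 3. DDX60 rose by 0.48 ± 0.13 (adjusted p = 0.0367, edgeR) and ISG15, a ubiquitin-like modifier, by 0.31 ± 0.0885 (adjusted p = 0.0409, edgeR), with p of 0.382 and 0.435 without that library.

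SLFN5, a further interferon-inducible gene, had 29.6, 28.2 and 29.6 CPM in vehicle and 33.7 to 38.3 CPM (median 36.1) in licorice. The groups did not overlap, and the difference of 0.31 ± 0.0595 on the log2 scale (adjusted p = 0.00374, edgeR) was called in every left-out fit. The antigen peptide transporter genes TAP1 (0.36, adjusted p = 0.0257, edgeR) and TAP2 (0.20, adjusted p = 0.0233) were the called members of the 16 MHC class I genes tested, and neither was called without vehicle replicate 3. The share of all genes called higher was 1.47%.

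The promoters of the risers of the interferon list are shown because they carry another kind of motif. The interferon-response type run GAAA, any pair of bases, GAAA was found on either strand within 250 bases before the start of IFIT1 (chr10:89392504-89392533, plus), ISG15 (chr1:1013377-1013406, plus) and DDX60 (chr4:168318786-168318815, minus). These are all 3 risers with a window, against 3.71% of all genes and 1 of the 11 NF-kB list genes (CFB). The search was made after the values had been seen, on members of an interferon list chosen because they rose. No share was taken for list members that did not rise, so the motif cannot be tied to the rise. A match does not show that a factor was bound. Capitals mark each copy of the motif on either strand. The copies overlap in ISG15 and are separate in IFIT1.
IFIT1: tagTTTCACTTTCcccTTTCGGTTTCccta
ISG15: gcctcggGAAAGGGAAACCGAAActgaagc
DDX60: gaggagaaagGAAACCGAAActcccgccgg

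The goblet and secretory list held 3 genes that fell of 19 tested, REG4, CREB3L1 and MUC2, against 1.55% of all genes called lower. None of the list rose. The other 16 were not called, and the list's median log2 difference was -0.14. REG4 and CREB3L1 were called without vehicle replicate 3 as well. REG4, a secreted lectin of intestinal secretory cells, had 33.3, 35.5 and 38.5 CPM in vehicle, 27.4, 27.9 and 28.9 at 20 µg/mL and 27.6, 25.6 and 26.3 at 100 µg/mL. Every licorice library was below every vehicle library, which 5.22% of genes tested showed in that direction, and the log2 difference was -0.39 ± 0.0602 (adjusted p = 0.000194, edgeR). CREB3L1, a transcription factor of the secretory apparatus, had 194, 204 and 223 CPM in vehicle and 156 to 179 CPM (median 166) in licorice (log2 -0.31 ± 0.0494, adjusted p = 0.000274, edgeR).

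MUC2, the main gel-forming mucin of the colon, had 18, 19.6 and 25.8 CPM in vehicle and 14.2 to 16.9 CPM (median 15.6) in licorice. It fell by 0.43 on the log2 scale (adjusted p = 0.0261, edgeR), but without vehicle replicate 3, the highest library, the p was 0.432. Outside the list, COLCA1, a gene named for its locus of colorectal cancer risk, had 34.0, 33.6 and 32.2 CPM in vehicle and 25.6 to 28.8 CPM (median 26.8) in licorice (log2 -0.30 ± 0.0589, adjusted p = 0.00408, edgeR). NFAT5, the transcription factor of the osmotic stress response, had 150, 160 and 162 CPM in vehicle and 120 to 138 CPM (median 129) in licorice (log2 -0.30 ± 0.0513, adjusted p = 0.000748, edgeR). UST, a uronyl sulfotransferase of the proteoglycan pathway, fell by 0.33 ± 0.0569 (adjusted p = 0.000829, edgeR).

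Among genes with a mean of at least 5 CPM whose groups did not overlap, the 3 largest rises were CXCL1, CXCL8 and PI3, and the next 12 were smaller. NUDT1, which clears oxidised nucleotides, had 12.5, 13.2 and 11 CPM in vehicle and 15.8 to 18.5 CPM (median 16.9) in licorice (log2 0.48 ± 0.121, adjusted p = 0.0256, edgeR). SLC16A3, a lactate exporter, had 40.3, 37.1 and 32.8 CPM in vehicle and 44.8 to 52.7 CPM (median 48.3) in licorice (log2 0.39 ± 0.105, adjusted p = 0.0348, edgeR). The 15 largest falls by the same rule lay between -0.41 and -0.72 on the log2 scale and included the membrane mucin MUC17 (-0.55 ± 0.154, adjusted p = 0.0409, edgeR) and the homeobox gene OTX1 (-0.42 ± 0.12, adjusted p = 0.0428, edgeR). In the fit without vehicle replicate 3, none of these 15 falls was called, and of the 15 rises CXCL1, CXCL8, PI3 and LCN2 were.

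Several lists of growth and housekeeping genes had a few members called against vehicle. Of 28 mitosis genes 6 rose, among them CDK1 (0.25 ± 0.0549, adjusted p = 0.0123, edgeR), of 30 DNA replication genes 4, among them MCM7, a subunit of the replicative helicase (0.18 ± 0.0427, adjusted p = 0.021), and of 31 proteasome subunits 5, among them PSMD4 (0.21 ± 0.0581, adjusted p = 0.0392). The medians of these lists were 0.06, 0.07 and 0.15, against -0.00162 over all genes, of which 1.47% were called higher. None of these members was called without vehicle replicate 3, and the part of that library in these differences was not tested further.

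Of the 13 mitochondrially encoded genes 6 fell, with a median of -0.385, against 1.55% of all genes called lower. MT-CO2, a subunit of cytochrome oxidase, had 8380, 9930 and 11200 CPM in vehicle and 6000 to 8070 CPM (median 7210) in licorice (log2 -0.45 ± 0.102, adjusted p = 0.016, edgeR). The share of all counts in mitochondrial genes was 8.61%, 9.90% and 11.4% in vehicle and 7.14% to 8.62% (median 7.98%) in licorice. The means were 9.96% ± 1.38 (SD, n = 3) and 7.96% ± 0.558 (SD, n = 6), a difference of -2.0 percentage points (exact two-sided permutation test, p = 0.0476). Without vehicle replicate 3, the library with the highest share, none of the 13 genes was called and the difference was -1.3 points (exact permutation p = 0.143). Leaving out any other single library except licorice 100 replicate 1 also took this p above 0.05.

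CYP1A1, a target of the aryl hydrocarbon receptor, had 4.87, 0.822 and 0.619 CPM in vehicle and 0.654 to 1.08 CPM (median 0.955) in licorice. Its call (log2 -1.20 ± 0.332, adjusted p = 0.0395, edgeR) rested on vehicle replicate 1, and without that library the difference was 0.33 (adjusted p = 0.565). Of the 17 tested genes of the corticosteroid response list none was called, with a median of 0.02. HSD11B2 had 7.26, 8.18 and 8.09 CPM in vehicle and 6.41 to 7.8 CPM (median 7.06) in licorice. The groups overlapped, with a 95% interval of the log2 difference from -0.35 to 0.04 (adjusted p = 0.382, edgeR). Of 25 antioxidant genes of the NRF2 list none rose and FTH1, the ferritin heavy chain, fell by 0.18 (adjusted p = 0.0343, edgeR). Of all genes, 1.47% were called higher and 1.55% lower. The counts for the corticosteroid and NRF2 lists are therefore not read as results about either list.

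**Figure D3:**
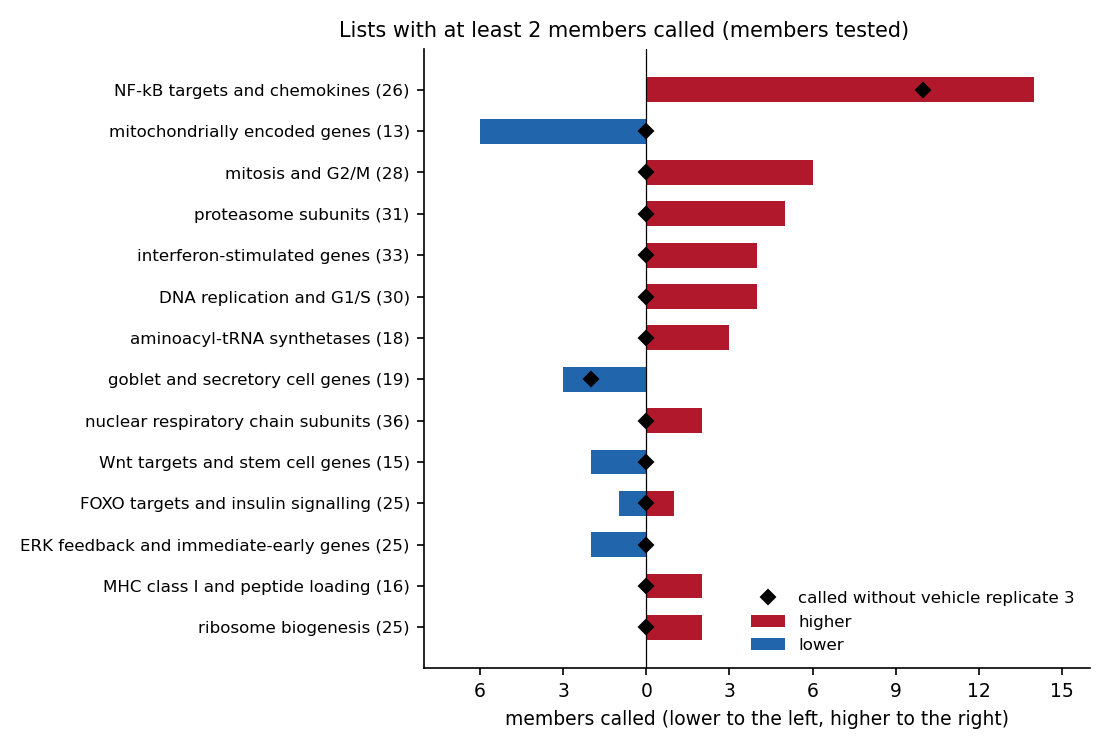
Number of members called higher (red, right) and lower (blue, left) with licorice at 100 and 20 µg/mL against vehicle, for the lists with at least 2 members called. The number of members tested stands in parentheses, and diamonds mark the number called without vehicle replicate 3, which is 10 for the NF-kB list, 2 for the goblet list and 0 for the others shown.

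The doses were next taken apart. Each dose against the same vehicle libraries gave 57 genes at 100 µg/mL (0.34%, 37 higher) and 62 at 20 µg/mL (0.37%, 34 higher). Both numbers rested on single libraries. At 100 µg/mL the number was 142, 32 or 18 with vehicle replicate 1, 2 or 3 left out, and 25 or 19 with licorice 100 replicate 2 or 3 left out. At 20 µg/mL it was 380, 10 or 3 for the same vehicle libraries, and 29 or 7 with licorice 20 replicate 2 or 3 left out. The members called whichever library was left out numbered 12 at 100 µg/mL and 3 at 20 µg/mL, the latter being PI3, PIGR and C3. Of the NF-kB list, 13 of 26 rose at 100 µg/mL (median 0.80), against 0.221% of all genes. At 20 µg/mL 10 rose (median 0.85), against 0.203%. CXCL5, SAA1, C3, CCL20, CXCL6 and IL32 entered the test through groups where they were higher. These counts and medians, and the place of C3 in the sets above, are therefore no separate support. With upper-quartile scaling the splits were 36 higher and 33 lower at 100 µg/mL, and 26 higher and 37 lower at 20 µg/mL.

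Set against each other, 100 and 20 µg/mL differed in 0 genes (0% of those tested) by edgeR, with 494 at an unadjusted p under 0.05 and 1 gene called by DESeq2. PI3 had the levels given above, 16.6 to 18.8 CPM at 20 µg/mL and 22.2 to 25.0 at 100 µg/mL. All of the 100 µg/mL libraries were above those at 20 µg/mL, as for 4.28% of genes tested, and the log2 difference was 0.46 ± 0.167 with an adjusted p of 1.0 (edgeR) and a 95% interval from 0.13 to 0.79. For CXCL1 that interval ran from -0.49 to 1.29, for CXCL8 from -0.46 to 0.84, for C3 from -0.58 to 0.75 and for PIGR from -0.66 to 0.24.

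The highest dose of the same extract, 500 µg/mL, was set against the lower doses without use of the vehicle. Against vehicle that dose differed in 1158 genes (6.91%), 746 or 552 with vehicle replicate 2 or 3 left out, and 716 with licorice 500 replicate 1 left out. It differed from the lower doses in 595 genes (3.55%), 302 higher (1.8%) and 293 lower (1.75%), and in 219 without licorice 500 replicate 3, 261 without licorice 500 replicate 1 and 374 without licorice 20 replicate 3. With upper-quartile scaling the split against the lower doses was 223 higher and 349 lower. None of the 26 NF-kB list members was called in it, and the list's median was 0.09. CXCL1 had 23.6, 23.5 and 26.4 CPM at 500 µg/mL and PI3 21.8, 21.3 and 22.7, both inside the range of the lower doses.

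A few interferon-stimulated genes, MX1 and IFIT1 among them, were lower at 500 µg/mL than at the lower doses. Of 33, 6 fell, 27 were not called and none rose, with a median of -0.185 against -0.00448 over all genes, of which 1.75% fell. MX1, an antiviral GTPase, had 6.62, 6.37 and 6.06 CPM in vehicle, 7.04 to 9.52 CPM (median 8.87) at the lower doses and 5.99, 5.21 and 5.73 CPM at 500 µg/mL. The lower doses were above both other groups, and 500 µg/mL differed from them by -0.59 ± 0.136 (adjusted p = 0.00715, edgeR). IFIT1 fell by 0.40 (adjusted p = 0.0132, edgeR) and DDX60 by 0.53 (adjusted p = 0.0107), and SLFN5, outside the list, by 0.21 (adjusted p = 0.0325). Neither SLFN5 nor any of the 6 list members was called in every fit with 1 of the 9 licorice libraries left out.

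REG4 and CREB3L1 were also lower at the highest dose than at the lower doses. Of the 19 secretory list members, 8 fell, 11 were not called and none rose, with a median of -0.28, against 1.75% of all genes lower. REG4 had 18.1, 19.1 and 17.8 CPM at 500 µg/mL, below all 6 libraries of the lower doses, as for 4.44% of genes tested (log2 -0.57 ± 0.0653, adjusted p = 7.6e-08, edgeR), and CREB3L1 130, 135 and 136 CPM (log2 -0.32 ± 0.051, adjusted p = 6.62e-05, edgeR). SPINK4, a goblet cell peptide, ATOH1, the factor that specifies the secretory lineage, and the mucus protein FCGBP also fell, by 1.20, 0.80 and 0.49. REG4 and CREB3L1 were called in every left-out fit and the other genes, SPINK4, ATOH1 and FCGBP, were not. SPINK4, ATOH1 and FCGBP were also not called at the lower doses against vehicle (adjusted p = 0.425, 0.792 and 0.705, edgeR).

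ALDH3A1 and members of the NRF2 list were higher at the highest dose than at the lower ones. ALDH3A1, an aldehyde dehydrogenase, had 28.9, 27.9 and 29.3 CPM in vehicle, 26.4 to 31.0 CPM (median 29.4) at the lower doses and 47.3, 47.3 and 43.8 CPM at 500 µg/mL. The lower doses overlapped vehicle and the highest dose was above both, as 5.09% of genes tested were above the lower doses (log2 0.66 ± 0.0469 against the lower doses, adjusted p = 4.02e-14, edgeR). AKR1B10, an aldo-keto reductase of the NRF2 list, differed by 0.46 (adjusted p = 1e-09, edgeR) and by 0.02 at the lower doses against vehicle (adjusted p = 0.864). In all, 12 of the 25 NRF2 list members rose at 500 µg/mL over the lower doses and none fell, against 1.8% of all genes higher.

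**Figure D4:**
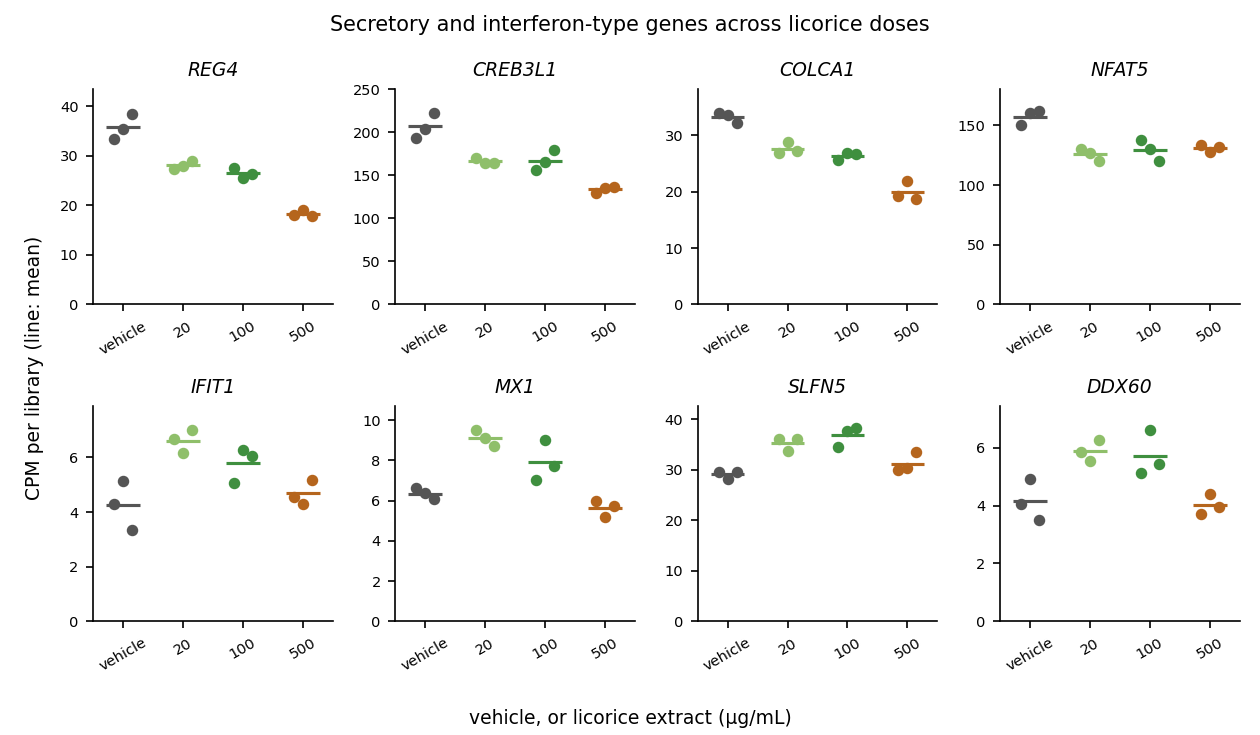
CPM of 8 secretory and interferon-type genes in each library (points, with the group mean as a line) for vehicle and licorice at 20, 100 and 500 µg/mL. REG4, CREB3L1 and COLCA1 are lowest at 500 µg/mL, NFAT5 is at a like level at the 3 doses, and IFIT1, MX1 and DDX60 have higher means at 20 and 100 µg/mL than at 500 µg/mL.

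To ask which differences set licorice apart, its lower doses were compared with the other 5 extracts at the same doses (28 libraries), again without the vehicle. They differed in 37 genes (0.221%), 32 higher (0.191%) and 5 lower (0.0298%), and in 24 without licorice 20 replicate 1. Of the 507 genes called against vehicle, 30 were also called here, 25 of them higher, and all 30 in the same direction. Both comparisons use the same licorice libraries, so the shared calls and their like direction are no separate support. These 30 had a median absolute log2 difference from vehicle of 1.47, and the other 477 of 0.229. Without vehicle replicate 3, 14 of the 30 and 8 of the 477 were called against vehicle. PI3 led with a log2 difference of 1.40 ± 0.0935 (adjusted p = 4.89e-15, edgeR), followed by PIGR (1.97 ± 0.137, adjusted p = 1.05e-14) and C3 (3.20 ± 0.238, adjusted p = 8.41e-14). These differences are from a mean over extracts and do not hold for Atractylodis. Its mean levels of PI3, PIGR and C3 were 29.3, 5.16 and 2.28 CPM, against 20.7, 3.65 and 1.59 in licorice.

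Of the NF-kB list, 13 of 26 were higher than in the other extracts (median 0.58), against 0.191% of all genes called higher. None of the list was called for those extracts against the same vehicle libraries, where 45 of all genes were called (0.268%) and the list's median was 0.25. That mean over extracts includes Atractylodis, for which alone 13 of the 26 rose against the same vehicle libraries (median 1.04), as did 50 of all 16767 genes tested. List members near 0 counts in vehicle entered the test through groups where they were higher, so these counts and medians only describe the list. That 45 became 219, 2 or 1 with vehicle replicate 1, 2 or 3 left out, 410, 19 or 19 with ginseng 100 replicate 1, 2 or 3 left out, and 20 or 19 with ginseng 20 replicate 2 or 3 left out. TNFAIP2 differed from the other extracts by 0.16 (adjusted p = 0.632, edgeR). MX1 was higher than in the other extracts by 0.42 ± 0.0815 (adjusted p = 0.00482, edgeR) and IFIT1 by 0.36 ± 0.0613 (adjusted p = 0.00044). PDZK1IP1, a membrane protein of epithelia, was higher by 0.25 ± 0.0377 (adjusted p = 3.02e-05) and COLCA1 lower by 0.18 ± 0.0382 (adjusted p = 0.0145). Atractylodis alone had like or higher mean levels of MX1, IFIT1 and PDZK1IP1, at 8.37, 6.26 and 15.0 CPM. Licorice had 8.53, 6.21 and 13.8 CPM of these genes. COLCA1 had 30.7 CPM in Atractylodis and 27.0 in licorice.

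Other genes moved against vehicle and were not called against the other extracts. REG4 differed from them by -0.13 (adjusted p = 0.345, edgeR), CREB3L1 by -0.11 (adjusted p = 0.244), NFAT5 by -0.07 (adjusted p = 0.904) and DDX11, a DNA helicase gene, by 0.06 (adjusted p = 0.767). The other extracts, against the same vehicle libraries, had -0.26 for REG4 (adjusted p = 0.0197, edgeR), -0.20 for CREB3L1 (adjusted p = 0.0253), -0.23 for NFAT5 (adjusted p = 0.0153) and 0.19 for DDX11 (adjusted p = 0.00847). Licorice had -0.39, -0.31, -0.30 and 0.25 for these genes, and the shared vehicle libraries bear on both sets of values.

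Against ginseng, the extract of the same code set, licorice differed in 34 genes (0.203%), 31 higher (0.185%) and 3 lower (0.0179%). Among them were 27 of the 507, which were called with the same licorice libraries. PI3 had 4.37 to 6.57 CPM (median 4.91) in the 6 ginseng libraries and was 1.97 ± 0.135 higher with licorice on the log2 scale (adjusted p = 1.39e-14, edgeR). CXCL1 had 1.7 to 3.31 CPM (median 2.03) in ginseng and was 3.37 ± 0.425 higher with licorice (adjusted p = 1.21e-06). No ginseng library reached the lowest licorice library in either gene, as for 0.4% of genes tested. Ginseng itself differed from the same vehicle libraries in 35 genes (0.209%), and in 0 with ginseng 100 replicate 2 or 3 left out. CXCL8 (1.82 ± 0.262, adjusted p = 1.7e-05), CCL20 (4.18 ± 0.652, adjusted p = 7.95e-05) and LCN2 (0.56 ± 0.0654, adjusted p = 2.19e-07) were higher as well.

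Atractylodis was compared with licorice by itself after its values had been seen. At 100 and 20 µg/mL its 6 libraries had 25.0 to 30.9 CPM of PI3 (median 30.1) and 25.0 to 37.9 CPM of CXCL1 (median 35.4), at or above the licorice range. Licorice and Atractylodis differed in 0 genes (0%) by edgeR, with 671 at an unadjusted p under 0.05 and 0 called by DESeq2. Against vehicle, Atractylodis differed in 76 genes (0.453%), 42 or 23 with vehicle replicate 2 or 3 left out and 41 to 47 without Atractylodis 100 replicate 3, 20 replicate 2 or 20 replicate 3. PI3 was 0.52 ± 0.116 lower with licorice on the log2 scale (adjusted p = 0.809, edgeR). Set against the other 4 extracts without Atractylodis, licorice differed in 66 genes, 36 of them among the 507, again with the same licorice libraries in both comparisons. The other genes named here had adjusted p of 0.8 or more against Atractylodis, which does not show that the 2 extracts act alike.

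**Figure D5:**
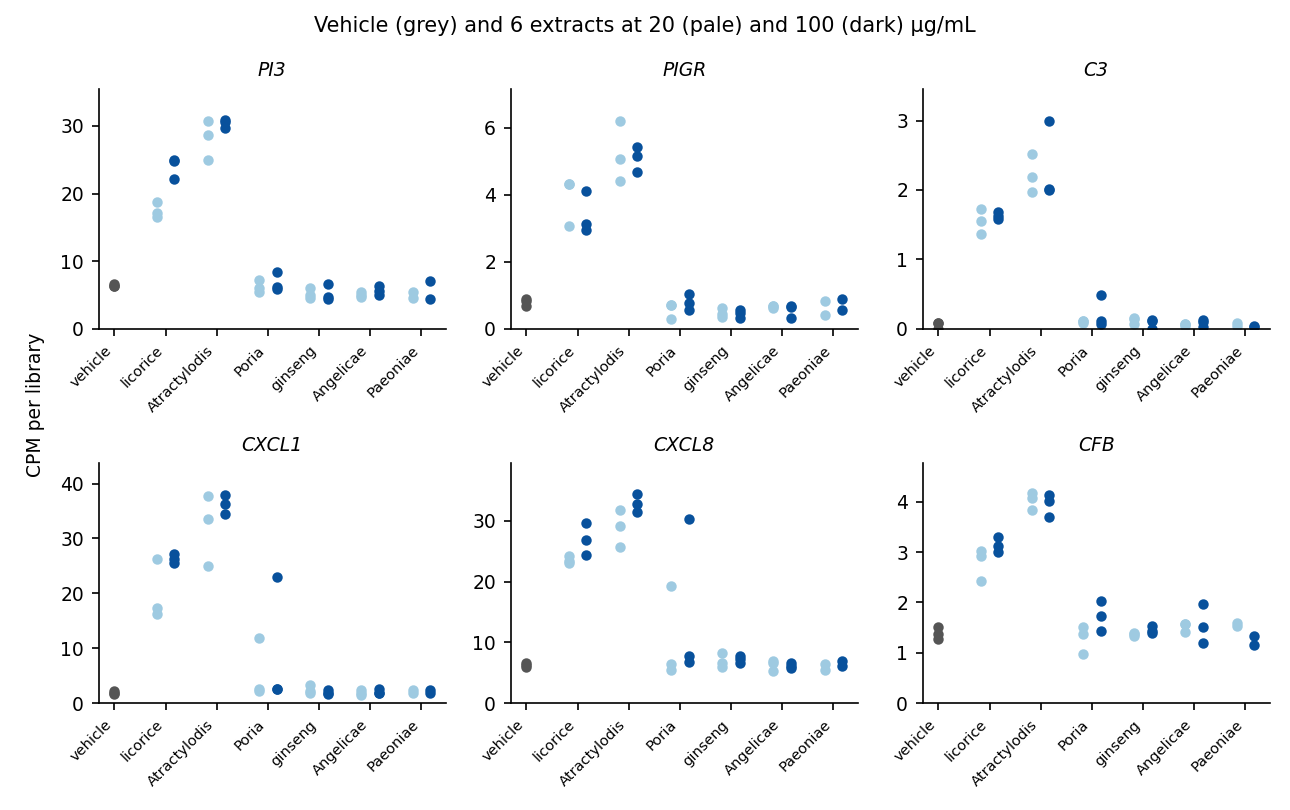
CPM of PI3, PIGR, C3, CXCL1, CXCL8 and CFB in each library for vehicle (grey) and the 6 extracts at 20 µg/mL (pale) and 100 µg/mL (dark). Licorice and Atractylodis libraries are high in all 6 panels, vehicle, ginseng, Angelicae and Paeoniae libraries are low, and 1 Poria library at each dose is high in CXCL1 and CXCL8.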

How the data were processed

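RNA-seq libraries of HT29 cells were analysed from the authors' deposited table of expected counts per gene for the whole series. Per the submitters' processing notes, FastQC 0.11.9, Trim Galore 0.6.5, STAR 2.7.3a and RSEM 1.3.3 were used with build GRCh38/hg38. No source used here gives the annotation release or the strand setting of the counting, so overlapping and antisense genes cannot be told apart. RSEM divides reads between similar genes. Of the deposited values above 0, 24.2% were not whole numbers. The 213 other columns of the table were not used.

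Expected counts were rounded and fitted with edgeR 4.0.16 (limma 3.58.1, R 4.3.3): filterByExpr (minimum count 10, total 15), TMM scaling, 1 mean for each of the 21 groups of the 60 libraries (39 residual degrees of freedom), quasi-likelihood F test, Benjamini-Hochberg adjustment over 16767 genes, called at an adjusted p under 0.05. Sharing 1 spread assumes that groups vary alike. The pooled comparison weights both doses equally. CPM are counts per 1e6 of the TMM-scaled library total. Symbols and coordinates came from GENCODE 29 for 57055 of 60675 genes. The scripts were tested on simulated data. No replicate pair agreed within counting noise, so none was merged.

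The members and gene lists were chosen with earlier results of these data known. Named genes are the 15 largest rises and falls called against vehicle with a mean of at least 5 CPM and groups that do not overlap, up to 4 members of each list by p, up to 10 in each direction from the other comparisons, and up to 15 genes called against both vehicle and the other extracts. DDX11, NFAT5 and UST, called in every left-out fit, further members of the NF-kB, interferon and goblet lists, and the genes of the closing observations were named after their values were seen. Alternatives were DESeq2 1.42.0, other scalings and filters, fits of the 9 libraries alone, a replicate block and leaving out in turn each vehicle, licorice or ginseng library (and each Atractylodis library in its own comparisons) that a comparison uses. Single libraries of Poria, Angelicae and Paeoniae were not left out in turn. Residuals of same-numbered libraries correlated at -0.084 to 0.12 among vehicle and the lower licorice doses, and at 0.0279 to 0.205 between the lower doses of licorice and ginseng. Not every pair exceeded 0.1, so the numbers were not taken to pair the libraries.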

Additional observations from a re-analysis of the deposited data

Results flagged for a closer look

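In 6 of 95 gene levels checked among the 6 licorice libraries, 1 library lay far from the other 5, its gap to the nearest being more than 0.625 of the whole range. Chance alone gives this in about 1 in 20 groups. CDK1 was lowest in licorice 20 replicate 1 (80.4 CPM, the others 90.0 to 91.4, gap 0.865 of the range), and POLR3K in the same library (22.8 CPM, the others 25.6 to 26.9, gap 0.687). OTX1 was lowest in licorice 100 replicate 2 (7.95 CPM, the others 9.02 to 9.30, gap 0.789) and CTC-338M12.4 highest in licorice 100 replicate 1 (10.1 CPM, the others 7.70 to 8.49, gap 0.678). The proteasome genes PSMD13 (148 CPM, the others 135 to 139, gap 0.634) and PSMD4 (108 CPM, the others 96.6 to 99.1, gap 0.780) were highest in licorice 20 replicate 3.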

How the results depend on the processing

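For the pooled comparison with vehicle the number of genes called was 507, and 934 with DESeq2, 808 with a filter at 5 CPM, 1367 with no filter, 1011 with the 9 libraries fitted alone and doses merged, and 22 to 839 with 1 library left out. At 100 µg/mL 57 became 181, 829 (no filter) and 106 (9 libraries alone), and 18 to 142 with 1 library left out. At 20 µg/mL 62 became 427, 169, 1068 and 306 (DESeq2, 5 CPM, no filter, 9 libraries alone), and 3 to 380. The doses differed from each other in 0 genes, in 1 with DESeq2, 3 with the 9 libraries alone and 80 with no filter, and in 0 to 0 with 1 library left out. Ginseng against vehicle gave 35, 282 (DESeq2), 105 (5 CPM), 926 (no filter) and 0 to 795. The other extracts against vehicle gave 45, 431, 195, 1088 and 1 to 410 by the same order, and 21 without the Poria libraries numbered 1. Atractylodis against vehicle gave 76, 140 (DESeq2), 892 (no filter) and 23 to 114. Without the vehicle, licorice against ginseng gave 34, 13 (5 CPM), 125 (no filter) and 23 to 34, against the other extracts 37, 15, 164, 66 (less Atractylodis) and 24 to 39, and against Atractylodis 0, 101 (no filter) and 0 to 0. The highest dose gave 595 against the lower doses (219 to 641) and 1158 against vehicle (552 to 1097), and with upper-quartile scaling 455 higher and 714 lower against vehicle. The difference in mitochondrial share ran from -2.68 to -1.3 points with 1 library left out. The CYP1A1 difference ran from -1.63 to 0.33 with 1 library left out. The cause of these changes was not tested, except that fewer libraries or genes entered some fits.

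Here a library left out is one of vehicle, licorice or ginseng, or of Atractylodis in its own comparisons. With a replicate block, though the numbers were not taken to pair the libraries, the numbers called were 916 for the pooled comparison, 193 and 221 for 100 and 20 µg/mL, 185 for ginseng, 277 for the other extracts and 156 for Atractylodis against vehicle, 58 for licorice against the other extracts, 1 against Atractylodis and 44 against ginseng. Genes under about 1 CPM, such as C3, CXCL5 and SAA1, rest on few counts, and their folds are the least precise.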

Other observations

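The 26 genes that differed at least 2-fold from vehicle, looked at after their values were seen, held further defence and immune genes. DMBT1, a scavenger receptor of mucosal surfaces, had 0.256, 0.288 and 0.309 CPM in vehicle. It was 1.59 higher with licorice on the log2 scale (adjusted p = 0.0168, edgeR, and adjusted p = 0.138 by edgeR without vehicle replicate 3). CSF1, the macrophage growth factor, was 1.3 higher (adjusted p = 0.0331, edgeR, and 0.275 without vehicle replicate 3). IL4I1, a secreted amino acid oxidase of immune cells, had 0.341, 0.206 and 0.265 CPM in vehicle and 0.863 to 1.23 CPM (median 1.1) in licorice. Its log2 difference was 1.96 ± 0.395 (adjusted p = 0.00578, edgeR), and 1.95 ± 0.468 without vehicle replicate 3 (adjusted p = 0.0761, edgeR). MIR3142HG, a host gene of small RNAs, had no count in vehicle and 8 to 14 counts in each licorice library, at least 9.72-fold higher against a floor of 3 counts over the group (adjusted p = 0.0068, edgeR, and 0.0941 without vehicle replicate 3).

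Among the Poria libraries, replicate 1 stood apart at both doses. CXCL1 had 11.8, 2.58 and 2.28 CPM in Poria replicates 1 to 3 at 20 µg/mL and 23.0, 2.5 and 2.52 at 100 µg/mL, and CXCL8 had 30.2, 6.82 and 7.83 CPM at 100 µg/mL. PI3 had 8.42, 5.86 and 6.16 CPM there, below every licorice library. These Poria libraries entered the shared estimate of the spread, and so the standard errors given for CXCL1 and CXCL8.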
